A study of Homo sapiens with 6 samples.

Results

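Tight junctions seal the space between neighbouring epithelial cells, and the 9 genes described here encode proteins of that seal or close partners of it. They were taken by gene symbol from a deposited table of 58825 genes: the claudins CLDN1, CLDN3, CLDN4, CLDN7 and CLDN12, occludin (OCLN), junctional adhesion molecule A (F11R), the cell adhesion molecule EPCAM and the scaffold ZO-1 (TJP1). Each symbol was found once, and all 9 passed the filter on low counts. RNA came from PANC-1, an established human line from a pancreatic ductal carcinoma that keeps epithelial keratins beside mesenchymal vimentin. Cells were exposed to CMR at 8 µM for 48 h (3 libraries) or were labelled control (3 libraries). The extraction text of the labels speaks of RNA from adipose types, which goes against the cell line named elsewhere in them; adipocyte marker levels are given below. Both groups were grown in the same serum-containing medium, and all libraries come from this 1 line. The labels give neither the full name of CMR nor what the control cells received, and they do not say whether replicate libraries are from separate cultures, so p-values measure the spread between these libraries only, which may be technical.

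Claudins are small membrane proteins, and their outer loops pair across the gap between cells; which claudins a cell makes sets how tight the barrier is and which ions pass. Occludin and junctional adhesion molecule A sit in the same strands or beside them, and ZO-1 ties the cytoplasmic tails of many of these proteins to actin. EPCAM is an adhesion protein of epithelial and carcinoma cells that binds claudin-7 in the membrane. In pancreatic ductal carcinoma CLDN4 and EPCAM are well-known surface antigens, and loss of junction genes is a textbook part of the shift from epithelial to mesenchymal state, in which factors of the SNAI and ZEB families bind E-boxes in junction gene promoters.

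Promoter windows are printed for the 4 genes of the set that rose with CMR and for the 1 that fell, because the E-box is the element best known from claudin and occludin promoters. The RefSeq table (GRCh38.p14) held windows for 7 of the 9 genes, from 250 bases before to 50 after a transcript start; EPCAM and F11R were not matched. Capitals mark each E-box CAGGTG and each GC box GGGCGG, read on both strands, so that they also appear as CACCTG and CCGCCC. Overlapping matches were counted separately. Where a gene has several windows, the one with the most matches of these motifs is shown, and on a tie the first.
CLDN3, chr7:73770221-73770520, minus strand: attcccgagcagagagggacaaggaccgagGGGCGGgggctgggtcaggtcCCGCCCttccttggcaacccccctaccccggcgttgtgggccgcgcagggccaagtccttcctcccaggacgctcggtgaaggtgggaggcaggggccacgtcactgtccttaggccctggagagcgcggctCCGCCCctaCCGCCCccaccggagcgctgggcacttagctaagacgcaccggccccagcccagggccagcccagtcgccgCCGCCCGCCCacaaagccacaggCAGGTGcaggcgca
CLDN7, chr17:7262429-7262728, minus strand: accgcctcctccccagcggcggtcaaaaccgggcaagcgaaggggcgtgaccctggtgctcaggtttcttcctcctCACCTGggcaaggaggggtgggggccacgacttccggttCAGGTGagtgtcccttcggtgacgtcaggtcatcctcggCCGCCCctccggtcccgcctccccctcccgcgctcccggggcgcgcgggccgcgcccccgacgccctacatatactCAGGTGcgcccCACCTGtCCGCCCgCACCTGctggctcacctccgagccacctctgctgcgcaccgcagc
OCLN, chr5:69492297-69492596, plus strand: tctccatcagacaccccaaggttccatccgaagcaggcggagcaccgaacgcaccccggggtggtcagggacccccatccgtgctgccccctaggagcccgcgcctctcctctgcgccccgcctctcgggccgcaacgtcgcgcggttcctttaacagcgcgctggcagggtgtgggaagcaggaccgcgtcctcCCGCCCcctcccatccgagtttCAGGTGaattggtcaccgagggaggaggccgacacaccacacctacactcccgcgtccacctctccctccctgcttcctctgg
TJP1, chr15:29969000-29969299, minus strand: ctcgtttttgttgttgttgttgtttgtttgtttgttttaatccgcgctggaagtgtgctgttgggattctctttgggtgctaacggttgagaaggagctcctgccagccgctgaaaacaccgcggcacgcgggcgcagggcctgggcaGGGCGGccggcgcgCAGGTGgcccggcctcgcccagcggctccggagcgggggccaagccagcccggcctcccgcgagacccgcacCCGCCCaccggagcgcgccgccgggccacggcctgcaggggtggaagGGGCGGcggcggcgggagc
CLDN1, chr3:190322397-190322696, minus strand: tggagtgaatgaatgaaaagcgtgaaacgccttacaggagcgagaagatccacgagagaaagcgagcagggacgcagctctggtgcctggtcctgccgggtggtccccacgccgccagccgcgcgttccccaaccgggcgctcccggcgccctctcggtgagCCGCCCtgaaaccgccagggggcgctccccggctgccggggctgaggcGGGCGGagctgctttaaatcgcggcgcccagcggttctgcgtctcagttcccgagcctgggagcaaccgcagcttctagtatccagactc

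Of the windows shown, that of CLDN7 held 5 E-box matches, those of CLDN3, OCLN and TJP1 held 1 each, and that of CLDN1 held 0. Among all 35116 promoter windows of that length, 20.6% held at least 1 such match and 0.094% held 5 or more. GC boxes numbered 6 for CLDN3, 2 for CLDN7, 1 for OCLN, 3 for TJP1 and 2 for CLDN1, and 45.0% of all windows held at least 1. For CLDN7, OCLN and TJP1 the window shown was picked for its matches of these motifs. The shares of all windows are therefore not a like comparison for these genes. The window of CLDN4, chr7:73830746-73831045, held 0 E-boxes and 1 GC box. The span of CLDN4 begins at 73799542, head to head with CLDN3 across a gap of 29271 bases on chromosome 7. No window at that start was searched. CLDN7 has a second window with 0 of both, OCLN a second with 2 E-boxes, and TJP1 3 more with 0 E-boxes. The element TGATGNAA of ATF4 with a C/EBP partner was searched on both strands as well, and 0 of the 12 windows held it, against 3.62% of all windows. The antioxidant response core TGACNNNGC matched 2 times in the CLDN3 window, 1 time in the CLDN12 window and 1 time in each second window of CLDN7 and OCLN (13.3% of all windows held it). The cyclic AMP response element TGACGTCA matched 1 time in the CLDN7 window shown (1.85% of all windows), and the grainyhead element AACCNGTT in none (1.73%). These are letter matches and say nothing of binding.

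Library totals ran from 51147268 to 70129221 counts, and log expression correlated with r from 0.966 to 0.971 within groups and 0.914 to 0.939 between them, across genes, which are not independent replicates. In the whole table edgeR's quasi-likelihood test called 7404 of 19200 tested genes at a Benjamini-Hochberg adjusted p under 0.05 (38.6%), 3928 higher (20.5%) and 3476 lower (18.1%) with CMR; with upper-quartile scaling the split was 3250 and 4324. The ductal line markers KRT7, KRT8, KRT18, KRT19 and VIM fell and SOX9 was not called (log2 change -0.40, edgeR BH-adjusted p = 0.673), and the summed level of the 6 ranged from 335 to 544 FPKM (a level per length of gene and size of library) with CMR and from 1242 to 1336 in control. Endocrine markers (5 of 5) had a count of 0 in every library, as had CPA1, PNLIP and AMY2A of the 6 acinar markers, LEP of the adipocyte markers, and CD3E of the leukocyte markers. The summed levels were 0.0924 to 0.164 FPKM with CMR and 0 to 0.0940 in control for the 6 acinar markers, of which PRSS1 was called higher, and stayed at or under 0.164 for the 5 adipocyte, 0.0984 for the 5 endothelial and 0.979 for the 6 fibroblast markers, whose range was 0.0626 to 0.118 with CMR and 0.229 to 0.979 in control and of which COL3A1 was called lower (log2 change -2.82, edgeR BH-adjusted p = 0.00992). The 5 leukocyte markers summed to 24.5 to 30.9 with CMR and 26.6 to 33.1 in control, nearly all of it CD68, a lysosomal protein gene that was not called. The part of these markers in the results below was not tested. In such bulk RNA, fewer cells of a type and less RNA per cell cannot be told apart.

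Of the 9 genes, 4 rose with CMR (CLDN3, CLDN7, OCLN and TJP1), 1 fell (CLDN1) and 4 were not called (CLDN4, CLDN12, F11R and EPCAM), against 38.6% of all tested genes called, 20.5% higher and 18.1% lower. CPM, counts scaled to library size with TMM factors, did not overlap between the groups in 5 of 9, against 53.9% of all tested genes. The median log2 change of the 9 was 0.47, beside -0.012 over all tested genes. That median is the value of CLDN12, which was not called (SE 0.66) and turned to -0.49 without CMR replicate 3. The 4 rises were called in each of the 14 alternative fits that were run.

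**Figure D1:**
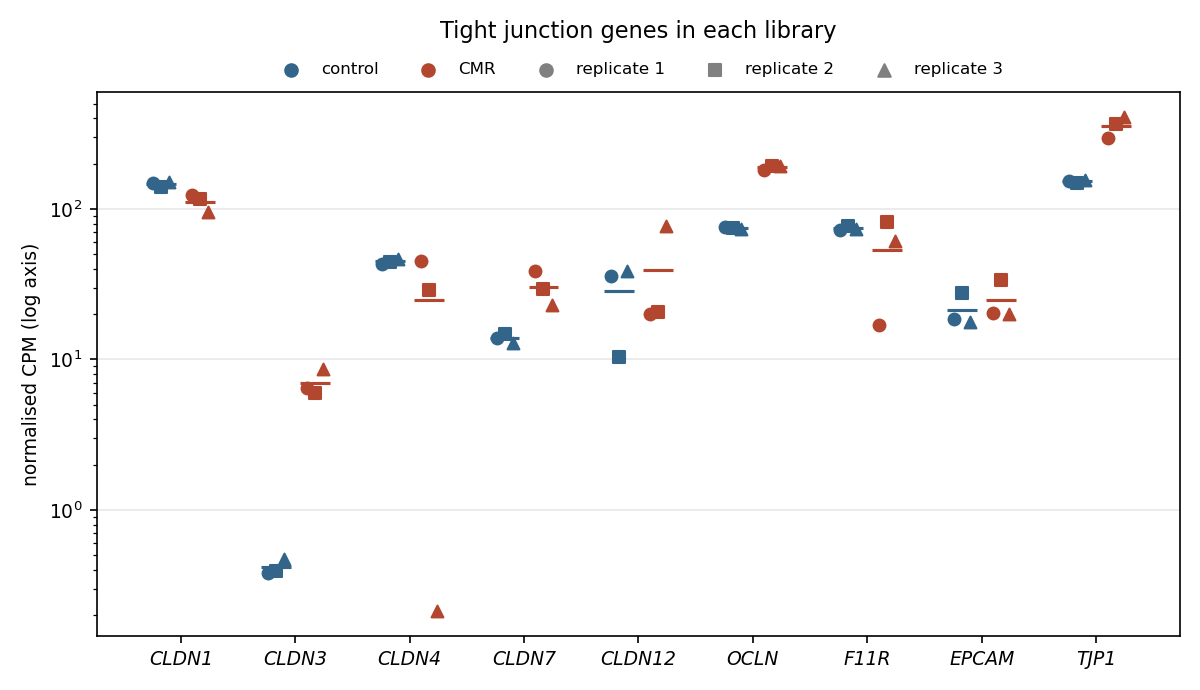
Normalised CPM on a log axis for each of the 9 genes, with 1 point per library (blue control, red CMR, shapes for replicate numbers) and a line at each group mean. CLDN3, CLDN7, OCLN and TJP1 lie higher in all 3 CMR libraries than in any control library, while CLDN4 in CMR replicate 3 and F11R in CMR replicate 1 lie far below their group mates.

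CLDN3, a barrier-forming claudin of ducts and gut (ENSG00000165215, chromosome 7, 73768997 to 73770270, minus strand, GRCh38 coordinates of the table), went from near silence to a moderate level. It had 20, 21 and 31 counts in the control libraries and 426, 409 and 565 in the CMR libraries, in replicate order. In CPM these are 0.382, 0.396 and 0.473 in control against 6.45, 6.01 and 8.62 with CMR. Every CMR library was far above every control library. The means were 0.417 ± 0.0490 and 7.03 ± 1.40 CPM (SD, n = 3), a log2 change of 4.06 ± 0.25 (SE; edgeR quasi-likelihood BH-adjusted p = 8.3e-05). Per length, 21.6% of tested genes had a lower mean FPKM than CLDN3 in control and 65.1% with CMR. No other row of the table overlaps its span.

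CLDN7, the claudin that partners EPCAM (ENSG00000181885, chromosome 17, 7259903 to 7263204, minus strand), stood at 13.9, 14.8 and 12.8 CPM in control and 38.7, 29.4 and 23.2 with CMR. The lowest CMR library was still above the highest control, although the CMR libraries were further apart from each other than the controls. The means were 13.8 ± 1.02 and 30.4 ± 7.81 CPM (SD, n = 3), with a log2 change of 1.14 ± 0.20 (edgeR BH-adjusted p = 0.00375). Its end meets that of ELP5, a subunit gene of the Elongator complex, over 38 bases on the other strand. ELP5 was also higher (log2 change 0.53, edgeR BH-adjusted p = 0.00501), and reads in those bases could not be assigned by strand here.

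CLDN1, the most abundant claudin of these cells and a component of most epithelial tight junctions (ENSG00000163347, chromosome 3, 190305707 to 190322446, minus strand), moved the other way by a small amount. Control libraries had 148, 140 and 151 CPM and CMR libraries 124, 117 and 94.9. The groups did not overlap, but the lowest control and the highest CMR library were close. The means were 146 ± 5.20 and 112 ± 15.04 CPM (SD, n = 3), a log2 change of -0.39 ± 0.11 (edgeR BH-adjusted p = 0.0318). The call was lost without CMR replicate 2 (edgeR BH-adjusted p = 0.0605) and without control replicate 1 (0.0950), 2 (0.0706) or 3 (0.0976), with log2 changes between -0.47 and -0.28 over the 6 fits that leave out a library.

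CLDN4, a claudin abundant in pancreatic carcinoma (ENSG00000189143, chromosome 7, 73799542 to 73832684, plus strand), was even in control at 43.4, 44.6 and 46.8 CPM. With CMR the libraries disagreed: 45.4 in replicate 1, 28.9 in replicate 2 and 0.214 in replicate 3, from 2997, 1964 and 14 counts. The value of CMR replicate 3 was 0.74% of the next lowest in its group. Drops under 1% of the next library were rare: among 8553 genes whose other 2 CMR libraries averaged at least 1000 counts, 3 genes had one in CMR replicate 3, 1 in replicate 1 and 1 in replicate 2. No other row of the table overlaps CLDN4, and the source of the low count was not tested. The log2 change was -0.86 ± 1.17 (edgeR BH-adjusted p = 0.606), and without CMR replicate 3 it was -0.28 (edgeR BH-adjusted p = 0.348). CLDN3 and CLDN4 are neighbours, and only CLDN3 was called; the difference between their changes was not tested.

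CLDN12, a claudin that lacks the tail motif by which most others bind ZO proteins (ENSG00000157224, chromosome 7, 90383721 to 90513402, plus strand), scattered in both groups. It had 35.7, 10.4 and 38.9 CPM in control and 20.03, 20.5 and 77.0 with CMR. The groups overlapped fully in their lower range, and CMR replicate 3 was the highest library. The log2 change was 0.47 ± 0.66 (edgeR BH-adjusted p = 0.617) and turned to -0.49 without CMR replicate 3 (edgeR BH-adjusted p = 0.547), while without control replicate 2 it was 0.073. Its SD of log2 CPM exceeded that of 99.3% of 1000 genes of like level within CMR and 99.0% within control. CLDN12 shares 7293 bases of span with GTPBP10 on the same strand, a mitochondrial GTPase gene whose mean count was 131% of that of CLDN12, and also overlaps CDK14 (10.2%). GTPBP10 counts, in replicate order, were 4107, 2889 and 3208 with CMR and 2152, 1984 and 2360 in control. How reads were shared between these rows was not tested.

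Occludin, the first transmembrane protein found in tight junctions (OCLN, ENSG00000197822, chromosome 5, 69492292 to 69558104, plus strand), gave the tightest result of the set. Control libraries had 75.4, 75.2 and 73.9 CPM and CMR libraries 181, 193 and 194. The gap between the groups was many times the spread within either. The means were 74.9 ± 0.817 and 189 ± 6.99 CPM (SD, n = 3), a 2.53-fold rise (log2 change 1.34 ± 0.08, edgeR BH-adjusted p = 6.5e-05). Only 9.4% of 1000 genes of like level had a smaller SD of log2 CPM within CMR, and 4.3% within control. A partial copy on the same chromosome, OCLNP1, had 95, 411 and 73 counts with CMR and 48, 0 and 16 in control, beside at least 3947 counts of OCLN in every library.

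Junctional adhesion molecule A, an immunoglobulin-fold protein that recruits polarity proteins to new junctions (F11R, ENSG00000158769, chromosome 1, 160995211 to 161021343, minus strand), had 72.2, 76.9 and 74.1 CPM in control. With CMR it had 16.8 in replicate 1, 82.1 in replicate 2 and 61.7 in replicate 3. Replicate 1 alone lay far below, at 27.3% of the next lowest library. The log2 change was -0.47 ± 0.48 (edgeR BH-adjusted p = 0.483), and without CMR replicate 1 it was -0.055 (edgeR BH-adjusted p = 0.781). The readthrough row AL591806 (ENSG00000270149), which covers much of the F11R span on the same strand, had 45, 5 and 8 counts with CMR and 165, 9 and 36 in control. What set the low value of F11R in that library was not tested.

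EPCAM (ENSG00000119888, chromosome 2, 47345158 to 47387601, plus strand) had 18.6, 27.9 and 17.6 CPM in control and 20.3, 33.6 and 20.2 with CMR. Replicate 2 was the highest library of both groups, and the groups overlapped. The means were 21.4 ± 5.65 and 24.7 ± 7.72 CPM (SD, n = 3), with a log2 change of 0.21 ± 0.26 (edgeR BH-adjusted p = 0.572) that became -0.075 without CMR replicate 2. In a list of 13 genes of EPCAM partners and processing, 1 rose and 3 fell (median log2 change -0.59). Of all tested genes 20.5% rose and 18.1% fell. The one that rose was ADAM17, a membrane protease that sheds the EPCAM ectodomain, from 63.9 ± 2.70 to 186 ± 26.4 CPM (SD, n = 3; log2 change 1.55 ± 0.12, edgeR BH-adjusted p = 0.000183); it overlaps IAH1 on the other strand. Those that fell were CD44, the hyaluronan receptor (-1.27 on the log2 scale), FHL2, a partner of the cleaved EPCAM tail (-0.91), and the tetraspanin gene CD9 (-0.83).

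ZO-1 is the scaffold that clusters claudins and joins them to actin. TJP1 (ENSG00000104067, chromosome 15, 29699367 to 29968865, minus strand) had 154, 149 and 155 CPM in control and 295, 367 and 407 with CMR. All CMR libraries were well above all controls. The means were 152 ± 2.92 and 357 ± 56.9 CPM (SD, n = 3), a 2.34-fold rise (log2 change 1.23 ± 0.12, edgeR BH-adjusted p = 0.000434). OCLN and TJP1 rose by similar amounts: the log2 ratio of OCLN to TJP1 on the FPKM scale was -0.16 ± 0.19 with CMR and -0.29 ± 0.04 in control (SD, n = 3), with ranges that overlapped. TJP3, the gene of the related scaffold ZO-3 and chosen after its values were seen, was near the floor, at 0.0561 FPKM with CMR and 0.0497 in control.

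**Figure D2:**
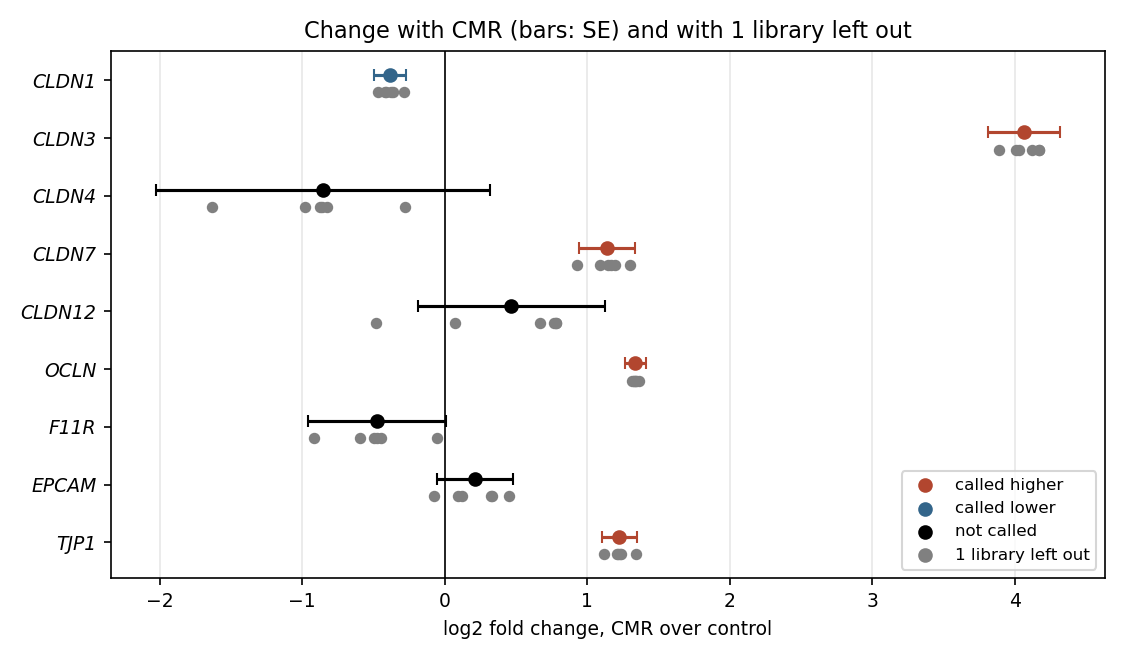
Log2 change of CMR over control for each of the 9 genes from the edgeR fit, with SE bars, and in grey the 6 values obtained when 1 library is left out. The grey points of CLDN3, CLDN7, OCLN and TJP1 stay to the right of 0, those of CLDN1 run from -0.47 to -0.28, and those of CLDN4, CLDN12 and F11R spread widely.

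The order of the 9 genes by level, compared per length in FPKM, was different in the 2 groups. In control CLDN1 led at 34.8 ± 1.16 FPKM (SD, n = 3), followed by F11R at 12.7 ± 0.410, TJP1 at 11.7 ± 0.202, OCLN at 9.55 ± 0.125, CLDN4 at 8.23 ± 0.300, EPCAM at 7.31 ± 1.95, CLDN7 at 4.77 ± 0.359, CLDN12 at 3.63 ± 2.01 and CLDN3 at 0.278 ± 0.0279. Neighbours in this order overlapped between CLDN4 and EPCAM and between CLDN7 and CLDN12. With CMR the top 3 were TJP1 at 25.8 ± 3.68, CLDN1 at 25.3 ± 3.79 and OCLN at 22.9 ± 0.455, whose ranges overlapped. Below a gap came CLDN7 at 10.0 ± 2.75, then F11R, EPCAM, CLDN12, CLDN3 at 4.50 ± 0.835 and CLDN4, each overlapping the next.

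The claudins were also summed per length. Over the 20 claudin genes with any count, the sum was 55.3, 51.8 and 56.7 FPKM in control and 59.4, 50.3 and 48.1 with CMR, and the groups overlapped. CLDN1 made up 63.5, 64.6 and 62.9% of this sum in control and 47.8, 52.3 and 43.8% with CMR. The share of CLDN7 was 8.76 ± 1.07% in control and 18.8 ± 3.12% with CMR, and that of CLDN3 0.509 ± 0.0391% and 8.68 ± 2.29% (SD, n = 3). The shares were not tested, and they depend on CLDN4 and CLDN12 in CMR replicate 3, where CLDN4 was 0.0708% and CLDN12 19.2% of the sum. FPKM is relative to all mRNA of a library, so the sum says nothing of amounts per cell.

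**Figure D3:**
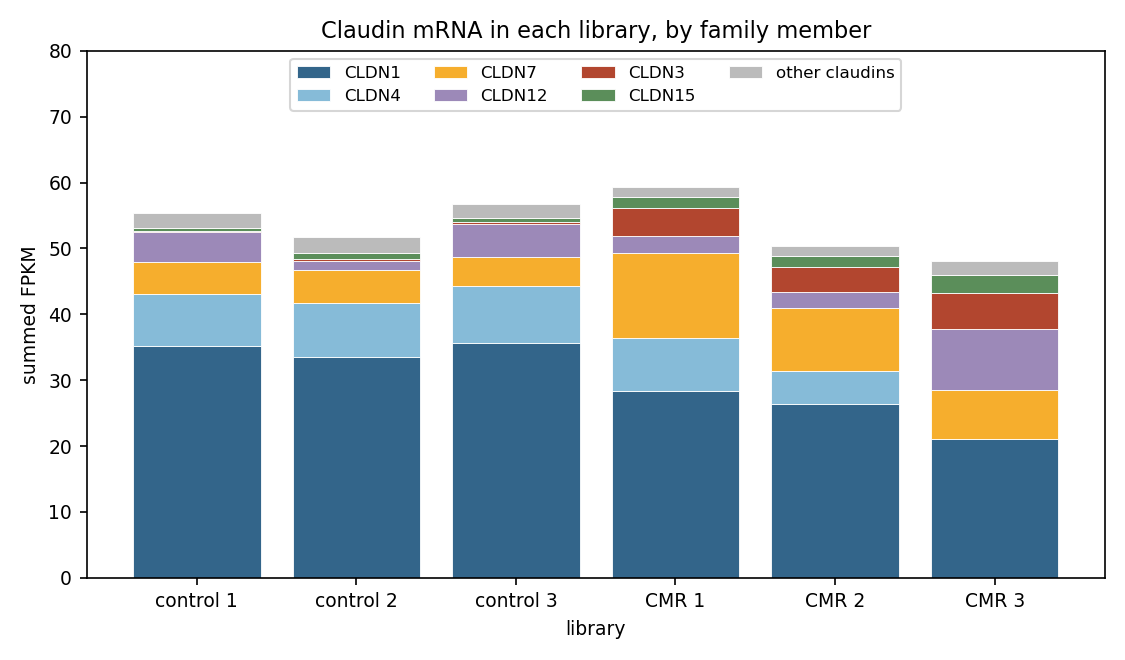
Summed FPKM of all claudin genes in each library, stacked by family member. CLDN1 (dark blue) is the largest part in all 6 libraries, CLDN3 (red) is visible with CMR only, and CLDN4 (light blue) is all but missing in CMR replicate 3.

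Of 19 other claudin genes in the table, 6 passed the filter, 1 rose, 1 fell and 4 were not called, where 20.5% of all tested genes rose and 18.1% fell. CLDN15, known as a cation-pore claudin of the intestine, rose from 2.39 ± 0.934 to 7.23 ± 2.41 CPM (SD, n = 3; log2 change 1.59 ± 0.36, edgeR BH-adjusted p = 0.0121). CLDN10, whose isoforms form ion pores in the kidney, had 4.14 ± 0.452 CPM in control and 1.80 ± 1.01 with CMR (log2 change -1.20 ± 0.39, edgeR BH-adjusted p = 0.0451), a call lost on leaving out any library but CMR replicate 1 (adjusted p from 0.0773 to 0.134). It overlaps DZIP1, whose mean count was 864% of its own, on the other strand. CLDN23 (log2 change 0.88), CLDN9 (0.94), CLDN11 (-0.54) and CLDN6 (-1.79) were not called, and all 4 had means under 1 FPKM in both groups. CLDN6 also overlaps the far more abundant TNFRSF12A on the other strand. CLDN2, a channel-forming claudin, and CLDN18, a claudin of stomach and some pancreatic cancers, both chosen after their values were seen, did not pass the filter.

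Among 9 tested membrane proteins that share the tight junction with claudins, 1 rose and 1 fell (median log2 change -0.32). The shares over all tested genes were 20.5% and 18.1%. LSR, the angulin that marks the corners where cells meet, rose from 11.3 ± 1.44 to 16.7 ± 1.13 CPM (log2 change 0.57 ± 0.14, edgeR BH-adjusted p = 0.0184), a call that did not hold without CMR replicate 2 (0.0582) or 3 (0.0536) or control replicate 1 (0.0663) or 3 (0.0662). BVES, a Popeye-domain protein of cell contacts, fell by 0.76 on the log2 scale (edgeR BH-adjusted p = 0.00820). MARVELD2, the tricellulin gene of the same corners and chosen after its values were seen, was not called (log2 change -0.077 ± 0.17, edgeR BH-adjusted p = 0.763).

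In the plaque under the membrane, TJP1 moved against most of what did change. Of 19 tested plaque and scaffold genes other than TJP1, 8 fell, 3 rose and 8 were not called, where 18.1% of all tested genes fell and 20.5% rose. Their median log2 change was -0.47 against -0.012 for all tested genes. Cingulin (CGN), which links ZO proteins to myosin, fell from 11.6 ± 1.64 to 2.17 ± 1.29 CPM (SD, n = 3; log2 change -2.41 ± 0.41, edgeR BH-adjusted p = 0.00346). The angiomotins AMOT (-1.95 on the log2 scale) and AMOTL1 (-1.30), which bind actin and YAP, and MAGI3 (-1.41), a PDZ scaffold that overlaps AL391058 on the same strand, fell as well. The 3 that rose, chosen after their values were seen, were ARHGEF2, a nucleotide exchange factor held by cingulin (0.88), YBX3, a Y-box protein that binds ZO-1 (0.74), and TJAP1 (0.53).

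Of 17 tested polarity genes, mostly of the Par and Scribble groups, 1 rose, 5 fell and 11 were not called, where 38.6% of all tested genes were called. Their median log2 change was -0.036. The Crumbs complex genes CRB3, MPP5 and PATJ, named after their values were seen, belong to the membrane and plaque lists above. CRB3 did not pass the filter, MPP5 was called lower (-0.66 on the log2 scale) and PATJ was not called (0.083). PRKCZ, an atypical protein kinase C gene of the Par complex, rose from 13.1 ± 1.15 to 22.04 ± 0.167 CPM (log2 change 0.75 ± 0.12, edgeR BH-adjusted p = 0.00279). It overlaps the similarly abundant FAAP20. PRKCI, the other kinase gene of that kind and chosen after its values were seen, was not called (log2 change 0.27 ± 0.11, edgeR BH-adjusted p = 0.0964). With CMR its mean was 8.73 FPKM, beside 2.34 for PRKCZ. LLGL2 fell by 1.60 on the log2 scale (edgeR BH-adjusted p = 0.00360). Its partners on the basolateral side, SCRIB (-0.45) and LLGL1 (-0.44), were called lower as well, but each call was lost on leaving out any library except CMR replicate 1, with adjusted p-values up to 0.0948 and 0.122. LLGL1 overlaps the more abundant FLII.

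In adherens junctions and desmosomes more genes fell than rose. Of 11 tested adherens junction genes, 6 fell and 1 rose (median log2 change -0.72, the value of CDH1). Of 8 desmosome genes 4 fell and 0 rose (median -0.74). Over all tested genes 18.1% fell and 20.5% rose. Vinculin (VCL), which couples adhesion sites to actin, fell from 985 ± 23.9 to 257 ± 69.1 CPM (SD, n = 3; log2 change -1.94 ± 0.18, edgeR BH-adjusted p = 0.000328); it overlaps AP3M1 on the other strand. Plakoglobin (JUP, -1.27), the neuronal cadherin CDH2 (-0.72) and NECTIN2 (-0.62) fell too. Among desmosome genes PKP2 (-1.19), PERP (-1.19) and PKP3 (-0.95) fell. CDH1, the gene of E-cadherin and chosen after its values were seen, had 39.1 ± 19.4 CPM in control and 23.7 ± 16.0 with CMR and was not called (log2 change -0.72 ± 0.52, edgeR BH-adjusted p = 0.324). In replicate order it had 28.4, 61.4 and 27.4 CPM in control and 18.7, 41.6 and 10.8 with CMR. Each CMR library was below the control of the same number. With the replicate number as a block CDH1 was called lower (log2 change -0.83, edgeR BH-adjusted p = 0.0261). The labels do not say that same-numbered libraries are pairs, and in 13 of 14 alternative fits CDH1 was not called.

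Epithelial factors and repressors of junction genes were examined from lists. The epithelial list holds transcription factors and also ESRP1 and ESRP2, which are splicing regulators and were named after their values were seen. Of its 16 tested genes, 6 fell and 1 rose (median log2 change -0.67), where 18.1% of all tested genes fell and 20.5% rose. ESRP2 was among those that fell (-0.77 on the log2 scale), and ESRP1 was not called. KLF4, a factor of differentiating epithelium, rose from 10.4 ± 1.55 to 23.7 ± 1.13 CPM (log2 change 1.18 ± 0.15, edgeR BH-adjusted p = 0.00102). TFAP2C (-2.11), GRHL3 (-2.09, overlapping STPG1) and FOXA2 (-1.04) fell. Of the 7 tested repressors, 4 fell and 0 rose, with a median of -0.76. TCF3, the E-protein gene, fell by 0.97 on the log2 scale (edgeR BH-adjusted p = 0.00236). SNAI1 was called lower (log2 change -0.76 ± 0.23, edgeR BH-adjusted p = 0.0363), a call that did not hold without CMR replicate 2 (0.0884) or 3 (0.0564) or control replicate 1 (0.0810) or 3 (0.121). The other 2 that fell, TCF4 and TWIST2, also chosen after their values were seen, had means under 1 FPKM in both groups. ZEB1, the most abundant repressor of the SNAI and ZEB families with CMR and likewise chosen after its values were seen, was not called (log2 change 0.44 ± 0.37, edgeR BH-adjusted p = 0.392). It had 19.0, 21.8 and 47.2 CPM in control and 28.3, 45.0 and 46.1 with CMR, so that only control replicate 3 overlapped the CMR libraries.

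Enzymes that modify claudins and the actin ring gave 4 lower and 1 higher of 10 tested (median log2 change -0.25), where 18.1% of all tested genes fell and 20.5% rose. The receptor kinase EPHA2, which phosphorylates CLDN4, fell from 323 ± 17.6 to 128 ± 27.5 CPM (log2 change -1.34 ± 0.16, edgeR BH-adjusted p = 0.000825). ITCH, a ubiquitin ligase that binds occludin, rose by 0.85 on the log2 scale (edgeR BH-adjusted p = 0.0130), a call that did not hold without control replicate 1 (0.0508). ROCK2 (-0.44) and WNK1 (-0.37) were called lower, ROCK2 not without CMR replicate 3 or control replicate 1 or 3 (adjusted p up to 0.0861), and WNK1 not without CMR replicate 1 or 2 or control replicate 1 or 3 (up to 0.136). Over all 116 tested genes of these 10 lists, 10 rose (against 20.5% of all tested genes) and 42 fell (against 18.1%), with a median log2 change of -0.37.

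**Figure D4:**
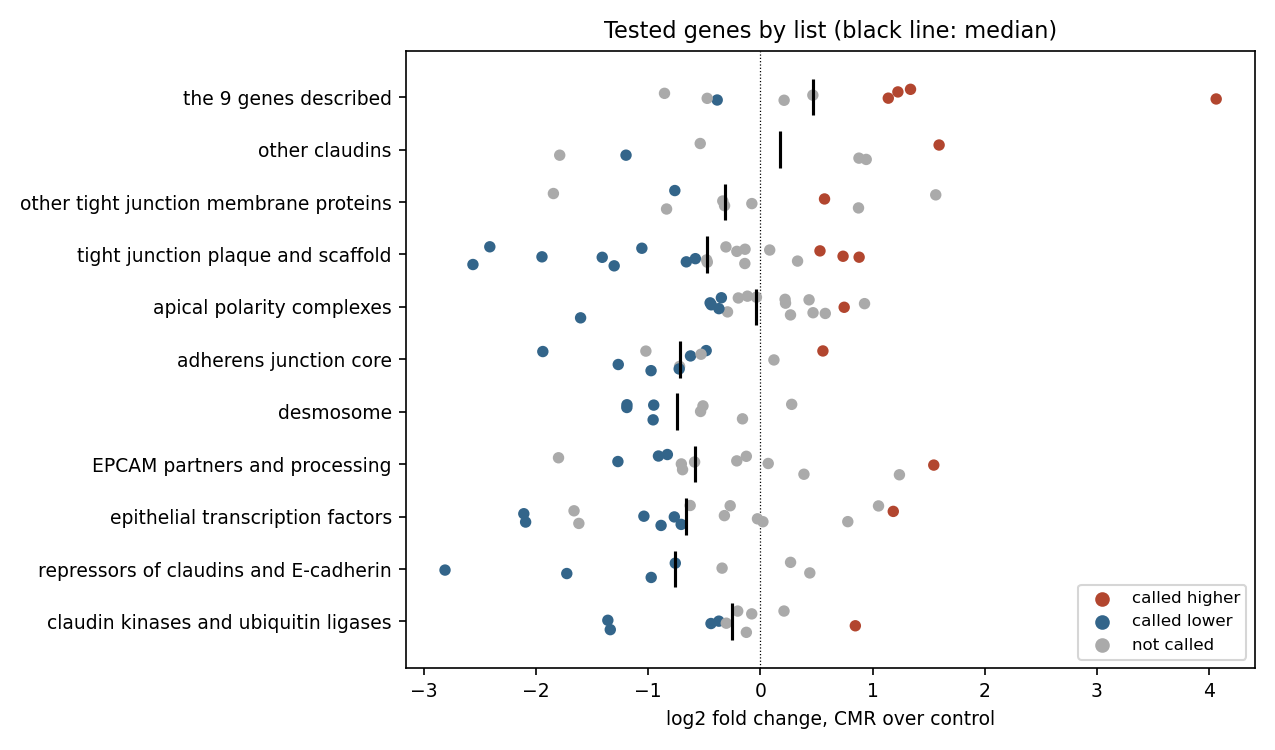
Log2 change of every tested gene in the 9-gene set and in 10 lists of junction, polarity and regulator genes (red called higher, blue called lower, grey not called; black lines mark list medians). CLDN3 is the point at the far right of the top row, and the scaffold, adherens junction and desmosome rows hold more blue than red points.

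The pattern of CLDN3 over the 6 libraries was set against that of 7147 other genes whose group mean reached 5 FPKM in either group, by the root mean square distance between log2 CPM values centred on each gene's mean. The nearest were DNAJB9, an endoplasmic reticulum co-chaperone (distance 0.169, 14.3-fold higher with CMR), CTH, a cysteine-making enzyme (0.186, 19.0-fold), and BEX2 (0.199, 18.0-fold). CLDN3 itself was 16.7-fold higher. The measure follows mainly the size of the change between the groups.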

How the data were processed

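RNA-seq libraries of 3 CMR and 3 control samples were analysed from 1 table. The count columns, as deposited, hold raw whole numbers per gene, per the file headers. The FPKM columns are the authors' own, per the file headers, and list genes of no count at 0.0001. The submitters' processing notes name Bowtie 0.12.2, HISAT2 2.0, StringTie 1.3.0 and the mouse build mm8, with no roles. The identifiers are human, and of 58552 found in GENCODE release 29, 47556 (81.2%) had the same GRCh38 coordinates, so coordinates were read as GRCh38. How genes were counted, and whether by strand, is not given in the sources used here. In all, 0 sample columns went unused.

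Counts were tested with edgeR 4.0.16 (R 4.3.3): TMM factors, filterByExpr (minimum count 10, minimum total 15; 19200 of 31368 genes with any count kept), the quasi-likelihood test with Benjamini-Hochberg (BH) p-values over all tested genes, called at 0.05. Standard errors are the log2 change divided by the root of F. No set test was run. Some items are not reported here. The genes described and the lists were chosen with earlier results of these data known. Genes named were the 9, every other tested claudin, up to 4 called genes per list with the largest change and a mean of at least 1 FPKM, and the 3 most like CLDN3; others are said to be chosen after their values were seen. Overlaps are given where the other row had at least 10% of a gene's mean count. Alternatives were DESeq2 1.42.0, upper-quartile factors, library totals, all genes with a count, a filter at 1 FPKM, limma 3.58.1 on log2(FPKM + 1) and log2(FPKM + 0.1), the replicate number as a block, and leaving out each library. The fits were tested on simulated counts. Figures used matplotlib 3.10.9.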

Additional observations from a re-analysis of the deposited data

How the results depend on the processing

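The counts of 4 genes called higher among the 9, and of 10 higher and 42 lower among 116 list genes, stayed within 1.5 times in all 14 alternatives, with 4 higher among the 9 in each, 9 to 14 list genes higher and 32 to 53 lower. The 1 gene called lower, CLDN1, was lost (0 lower) with the replicate number as a block (edgeR BH-adjusted p = 0.0529) and in 4 of the 6 fits that leave out a library, where the count ran from 0 to 1. Signs turned in 2 of the genes that were not called: EPCAM to -0.075 without CMR replicate 2 and CLDN12 to -0.49 without CMR replicate 3. Over the fits that leave out a library they ran from -0.075 to 0.45 and from -0.49 to 0.78. Upper-quartile scaling shifted the median log2 change over tested genes from -0.012 to -0.14 and the share of calls that were higher from 53.1% to 42.9%. For the replicate block, deviations from the group means correlated between same-numbered libraries with r = 0.034, 0.044 and 0.052, all under the 0.1 set for pairing, so the numbers were not taken as pairs; each library correlated best with its own number, and the block gave 6737 calls against 7404. With all genes of any count tested, the calls of CLDN10, LLGL1, SNAI1 and WNK1 were lost (BH-adjusted p by edgeR from 0.0596 to 0.0653). With the block, ROCK2 and WNK1 were lost (0.0525 and 0.0771) and CDH1 was called lower (log2 change -0.83, edgeR BH-adjusted p = 0.0261). Leaving a group with 2 libraries assumes that spread is shared between the groups. Control counts of CLDN3 (20 to 31) limit its fold change: on log2(FPKM + 1) it was 2.09.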
